A study of Mus musculus with 30 samples.

Results

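The genes described here encode the proteins of the cytosolic ribosome. They were taken by symbol: Rpl or Rps followed by digits and at most 1 closing letter (a, l or x), together with Rplp0, Rplp1, Rplp2 and Rpsa, without pseudogene symbols and without the S6 kinase genes (Rps6k). The rule found 82 genes in all, of which 81 were among the 24063 genes of the bulk RNA-seq table (49 of the large and 32 of the small subunit) and 81 among the 27933 genes of the single-cell tables. Rps4l was listed only in the bulk table and Rpl6l only in the single-cell tables. Ribosomal proteins with other symbols, such as those made from Fau and Rps3a1, fall outside the rule.

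The study compared mouse bone marrow cells with and without Mettl3, the catalytic subunit of the enzyme that writes N6-methyladenosine on messenger RNA. Wild-type (WT) animals carried Mettl3 fl/fl without Cre, and Mettl3KO animals carried Mx1-Cre; Mettl3 fl/fl. All groups were taken 3 weeks after pIpC, the interferon inducer that switches on Mx1-Cre, so the controls had been treated as well. Mx1-Cre is driven by an interferon-responsive promoter and is not limited to stem cells. Bulk libraries came from hematopoietic stem cells (HSC, sorted as Lin-;Sca1+;c-Kit+;CD150+;CD48-) and from 3 multipotent progenitor populations: MPP4 with the gate CD150-;CD48+, MPP2 positive for both markers (CD150+;CD48+) and MPP1 negative for both (CD150-;CD48-). Each of these 8 groups held 3 mice, which gave 24 libraries. Droplet libraries (10x) were made from Lin-;c-Kit+ cells (LK), with 3 mice of each genotype. Whether 1 mouse gave several of the sorted populations is not stated in the labels. The labels give no age or sex of the animals.

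Ribosomal proteins assemble with ribosomal RNA in the nucleolus, and each mature ribosome holds most of them once, so their mRNAs are usually made in step. Their transcripts start with a terminal oligopyrimidine tract, a C followed by a run of C and T, through which growth signals control their translation. Loss of 1 copy of several of these genes causes Diamond-Blackfan anaemia, a failure of red cell production. Unused ribosomal proteins, above all Rpl5 and Rpl11, bind Mdm2 and stabilise p53. Blood stem cells are known for low protein synthesis compared with their progeny.

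Start-site sequences are shown for 7 members that the results below turn on, to let the tract be read directly. Each is 15 bases before and 15 bases from the annotated start, 5′ to 3′ on the gene's strand, taken from RefSeq (GRCm38.p6). Capitals mark a C followed by at least 4 C or T beginning at the first annotated base. Rps27 and Rps27l are a pair of paralogs, and Rpl15 is shown for the length of its tract. Rps21, Rplp2, Rpl41 and Rps24 were called higher in Mettl3KO in the droplet class named HSC/MPP-like below. Those calls were lost without a cluster of almost only Mettl3KO cells.
Rps27 (chr3:90213634-90213663, minus strand): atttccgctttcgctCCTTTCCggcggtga
Rps27l (chr9:66946071-66946100, plus strand): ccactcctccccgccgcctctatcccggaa
Rps21 (chr2:180257364-180257393, plus strand): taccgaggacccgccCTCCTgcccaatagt
Rplp2 (chr7:141447636-141447665, plus strand): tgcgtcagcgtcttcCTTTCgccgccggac
Rpl15 (chr14:18270972-18271001, minus strand): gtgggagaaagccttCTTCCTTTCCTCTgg
Rpl41 (chr10:128549154-128549183, minus strand): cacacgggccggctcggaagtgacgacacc
Rps24 (chr14:24490663-24490692, plus strand): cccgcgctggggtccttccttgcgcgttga
A window was found for 60 members, and 13 of them (21.7%) had such a tract at the annotated base, against 3.01% of 27025 genes with a window. Allowing the tract to begin within 5 bases of that base gave 28 members (46.7%) against 21.2% of all genes. The match was made on the gene's strand only, and a window without it says only that these letters are not at that annotated base.

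The depth of the bulk libraries ran from 28896498 to 55276836 counts and that of the droplet libraries from 28546967 to 44159208 UMIs (unique molecular identifiers). Mettl3 itself was at 29.6 to 42.5 CPM (counts scaled to a common library total) in the 12 WT bulk libraries and at 11.6 to 22.4 CPM in the 12 Mettl3KO libraries, without overlap. Among surface markers, Slamf1 (CD150) was at 15.6 to 62.6 CPM in HSC and at 0.560 to 3.82 CPM in MPP4, and Cd48 was at 5.58 to 33.5 CPM in HSC and MPP1 against 136 to 254 CPM in MPP2 and MPP4. Libraries that stood apart were Mettl3KO replicate 2 of MPP1, in which markers of other cells, led by the neutrophil gene Ngp, summed to 28371 CPM against 66.0 to 2548 CPM elsewhere, and Mettl3KO replicate 2 of HSC, MPP1 and MPP2, in which Rn45s, the ribosomal RNA precursor, took 5.12 to 5.50% of counts against at most 3.61% elsewhere. P-values measure the spread between these mice.

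The members together took only a small part of the bulk counts. In HSC their share was 2.00%, 1.04% and 2.25% in the WT libraries and 1.41%, 2.78% and 2.54% in the Mettl3KO libraries. The second WT library was the lowest and the groups overlapped. In MPP1 the share was 2.24%, 2.24% and 2.67% in WT and 1.66%, 1.92% and 0.881% in Mettl3KO, with every Mettl3KO library below every WT library. In MPP2 it was 2.03%, 2.30% and 1.95% in WT and 3.03%, 2.82% and 2.05% in Mettl3KO. In MPP4 it was 2.79%, 2.48% and 2.76% in WT and 2.64%, 1.99% and 2.14% in Mettl3KO. The difference of the means, Mettl3KO minus WT, was 0.483 percentage points in HSC, -0.899 in MPP1, 0.538 in MPP2 and -0.419 in MPP4. Two-sided exact permutation tests gave p = 0.5, 0.1, 0.2 and 0.2 for the 4 populations, and 0.1 is the smallest value that 3 mice against 3 allow. In bulk libraries fewer cells of a type and less RNA per cell cannot be told apart. The share of all other genes with a short transcript (under 1000 bases) ranked alongside: in HSC it was 6.60%, 4.46% and 7.04% in WT and 4.83%, 8.62% and 7.74% in Mettl3KO, low in the same libraries as the members. The part of transcript length in these shares was not tested here. In MPP1 Mettl3KO it was 5.87%, 11.9% and 3.99%, where the second library is the one with the neutrophil genes.

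**Figure D1:**
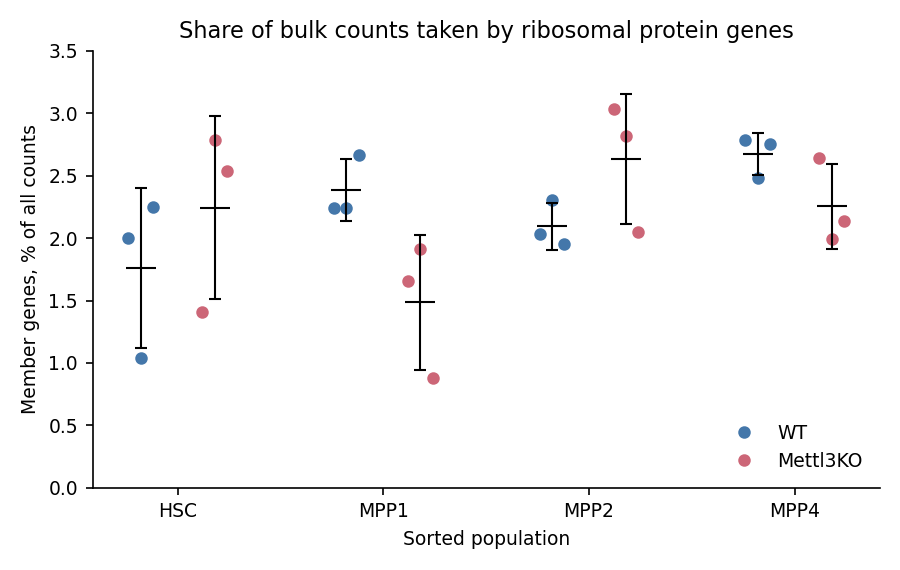
Share of all bulk counts taken by the ribosomal protein genes (y axis, percent) in the 4 sorted populations (x axis). Each point is 1 mouse, the horizontal bar the mean and the error bar the SD of 3 mice. The genotypes overlap in HSC, MPP2 and MPP4, and in MPP1 the Mettl3KO libraries, at most 1.92%, lie below the WT libraries, at least 2.24%.

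The question of the main comparison is whether loss of Mettl3 changed these mRNAs in stem and progenitor cells. Gene by gene, no member passed the test in any bulk population, while nearly all members of a population lay on the same side of 0. In HSC the median log2 fold change (Mettl3KO against WT) of the 80 members tested was 0.41, with 80 above 0. The median was -0.56 in MPP1 with 78 below 0, 0.40 in MPP2 with 79 above 0, and -0.17 in MPP4 with 74 below 0. The median of all 15545 genes tested was 0.00, 0.01, -0.02 and -0.01 in the same order. A member was called where edgeR's quasi-likelihood test with Benjamini-Hochberg adjustment over all genes gave an adjusted p under 0.05. It called 0 of 80 members in HSC, MPP1, MPP2 and MPP4, against 6.15%, 8.63%, 2.47% and 3.13% of all genes. An unadjusted p under 0.05 was found for 6, 25, 2 and 0 members, beside 20.7%, 25.9%, 16.1% and 16.0% of all genes, and DESeq2 called 0, 5, 0 and 0. In MPP1 DESeq2 called 6.93% of all genes lower. The 5 in MPP1 were Rpl7, Rpl3, Rpl21, Rpl15 and Rps13, all lower. Members rise and fall together between libraries: 75 of the 78 members with a mean of at least 10 CPM had a correlation of at least 0.9 with the sum of the other members over the 24 libraries (median 0.98). Such members are not separate evidence of a direction.

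In MPP1 the members with the smallest adjusted p were Rpl7, Rps13 and Rpl3. Rpl7, a large-subunit protein, was at 445, 479 and 644 CPM in WT, compared with at 306, 369 and 161 CPM in Mettl3KO (log2 fold change -0.91 ± 0.31 SE, adjusted p = 0.071 with edgeR). Rps13, of the small subunit, was at 137, 132 and 170 CPM in WT, compared with 81.8, 115 and 49.3 CPM in Mettl3KO (-0.83 ± 0.30, edgeR adjusted p = 0.084). The groups did not overlap for either gene. Rpl3, which forms part of the floor of the peptidyl transferase centre, was at 452, 509 and 673 CPM in WT, compared with 406, 411 and 240 CPM in Mettl3KO (-0.63 ± 0.22, edgeR adjusted p = 0.085), also without overlap. For 25 of the 80 members the Mettl3KO libraries of MPP1 all lay below the WT libraries, against 12.2% of all genes. Without Mettl3KO replicate 2, the library with the neutrophil genes, 16 members were called lower, beside 5.10% of all genes, and the median was -0.99. Removing trends of fold change with transcript length and GC content gave 20 lower members in MPP1, beside 3.67% of all genes called lower.

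In HSC the groups did not overlap for 1 member, Rps27l, which was higher in Mettl3KO, against 12.1% of all genes higher without overlap. In MPP2 10 of 80 members were higher without overlap, against 2021 of all 15545 genes. In MPP4 only Rpl3l was higher without overlap and Rpl10a and Rps6, the substrate of the S6 kinases, were lower, against 13.9% and 14.4% of all genes. None of these counts is a larger share than that over all genes. With the length and GC trends removed, 6 members were called higher in HSC (Rpl29, Rpl13a, Rpl27a, Rps16, Rpl39 and Rps27l) and 2 in MPP2 (Rpl37a and Rps27l), beside 5.76% and 3.51% of all genes called higher, and the median of MPP4 turned to 0.06. Without Mettl3KO replicate 1 of HSC, Rps27l was called higher, beside 4.53% of all genes.

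**Figure D2:**
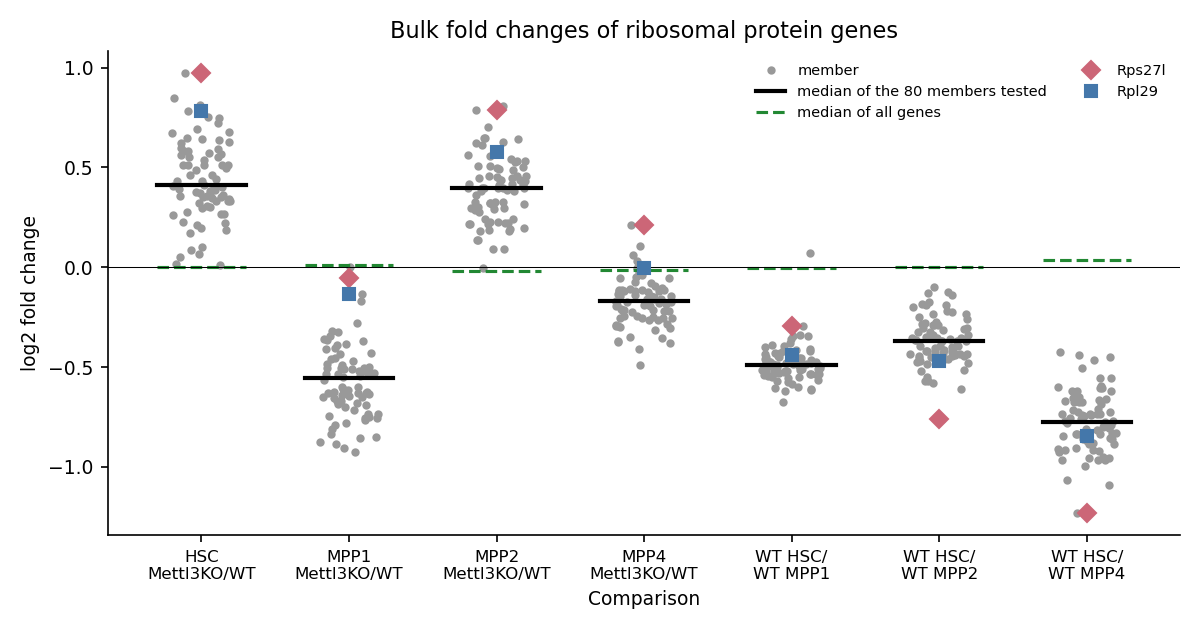
Log2 fold change (y axis) of the ribosomal protein genes in 7 bulk comparisons (x axis). Each grey point is 1 member, black bars are the median of the 80 members tested and green dashes the median of all genes. Rpl3l and Rpl39l, which have very few counts, are left out of the points. The members sit above 0 in HSC and MPP2 (medians 0.41 and 0.40), below 0 in MPP1, and lowest in WT HSC against WT MPP4 (median -0.78).

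No list of members by role had a called member in the 4 populations. The 48 large-subunit members tested had a median of 0.41 in HSC and -0.52 in MPP1, and the 32 small-subunit members had 0.42 and -0.63. The 4 tested members known as tissue-limited or stress-linked paralogs had medians of 0.50 in MPP1 and 0.82 in MPP4, on the other side of 0 from the members as a whole. They are Rpl3l, Rpl39l, Rps4l and Rps27l, so these medians rest partly on genes with few counts. Rpl39l had 0 to 25 counts a library. Rpl3l had 37, 32 and 53 in WT MPP1 against 2, 99 and 133 in Mettl3KO, and 205, 63 and 53 in WT MPP4 against 289, 345 and 409. The 20 genes mutated in Diamond-Blackfan anaemia had medians of 0.39 in HSC, -0.64 in MPP1, 0.43 in MPP2 and -0.16 in MPP4, with 0 of 20 called in each. Rps19, the gene most often mutated in that disease, was at 267, 130 and 315 CPM in WT HSC and 188, 454 and 372 CPM in Mettl3KO HSC, with wide overlap (0.51 ± 0.36, edgeR adjusted p = 0.45). Rps14, whose loss of 1 copy underlies the anaemia of the human 5q- syndrome, had log2 fold changes of 0.46 ± 0.41 in HSC (edgeR adjusted p = 0.57) and -0.89 ± 0.41 in MPP1 (edgeR adjusted p = 0.18). The 5S particle proteins, which can bind and inhibit Mdm2, were Rpl5 at 0.35 ± 0.26 and Rpl11 at 0.35 ± 0.36 in HSC (edgeR adjusted p = 0.49 and 0.63). The stalk proteins, which recruit elongation factors, were Rplp0 at 0.27, Rplp1 at 0.57 and Rplp2 at 0.64 in HSC, with edgeR adjusted p of 0.61, 0.45 and 0.34. Rpsa, the laminin receptor homologue of the small subunit, was at 0.50 ± 0.34 in HSC (edgeR adjusted p = 0.42). Rpl22, whose loss in mice blocks the development of a class of T cells, was at 0.55 ± 0.22 (edgeR adjusted p = 0.15).

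The genotype effect was then compared between HSC and each progenitor. The median difference of log2 fold changes, HSC minus progenitor, was 1.02 for MPP1 with 80 of 80 members above 0, 0.62 for MPP4 with 80 above 0, and 0.05 for MPP2 with 56 above 0. The interaction test of edgeR called 0 of 80 members in each case, against 0.0386% of all genes for MPP1, 1.55% for MPP4 and 0.00643% for MPP2. An unadjusted p under 0.05 was found for 43, 1 and 0 members in that order, beside 10.3%, 15.8% and 3.58% of all genes, and DESeq2 called 0 in each. The median for MPP2 changed sign in 7 of the alternatives tried.

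Among WT cells, the fitted values of nearly all members lay lower in HSC than in the progenitors, and 5 members passed the test against MPP4. The median log2 difference, HSC against progenitor, was -0.49 for MPP1 with 79 of 80 below 0, -0.37 for MPP2 with 79 below 0, and -0.78 for MPP4 with 80 below 0. The same WT HSC libraries serve in all 3 comparisons. Over the alternatives tried, the median ran from -0.736 to -0.195 for MPP1, -0.639 to -0.0504 for MPP2 and -1.05 to -0.302 for MPP4. The share of counts in members overlapped between WT HSC (2.00%, 1.04% and 2.25%) and WT MPP2 (2.03%, 2.30% and 1.95%). Against MPP1 and MPP2 edgeR called 0 members, beside 0.0257% and 3.91% of all genes, with 2 and 1 members at an unadjusted p under 0.05 (6.76% and 3116 of all 15545 genes) and 0 called by DESeq2. Against MPP4, the 5 members called lower stood beside 6.65% of all genes called lower. Here 56 members had an unadjusted p under 0.05, beside 29.8% of all genes, and DESeq2 called 18 members and 10.6% of all genes lower. The WT libraries of HSC all lay below those of MPP4 for 73 members, against 21.3% of all genes. Of the other translation genes with such tracts, which are no members, 5 of 19 were called lower in WT HSC than in WT MPP4, namely Eef1d, Eef1g, Hnrnpa1, Nap1l1 and Npm1.

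Of the 5 members, Rpl3l, Rps27l, Rpl13a and Rpl10 are described here. Rps27l was at 73.0, 37.7 and 72.0 CPM in WT HSC and at 176, 123 and 130 CPM in WT MPP4 (-1.23 ± 0.35, edgeR adjusted p = 0.03). Rpl10, a late-joining protein of the large subunit, was at 215, 122 and 204 CPM against 358, 307 and 359 CPM (-0.92 ± 0.26, edgeR adjusted p = 0.029). Rpl13a was at 316, 170 and 372 CPM against 581, 482 and 617 CPM (-0.97 ± 0.31, edgeR adjusted p = 0.047). For Rps27l, Rpl10 and Rpl13a every HSC library lay below every MPP4 library, and the second HSC library was the lowest. Rpl3l, the paralog of Rpl3 known from striated muscle, had 2, 0 and 10 counts in the WT HSC libraries and 205, 63 and 53 in WT MPP4 (edgeR adjusted p = 0.019), which is 0.0388, 0.00 and 0.236 CPM against 5.47, 1.72 and 1.76 CPM.

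The number called rested on single libraries. Without WT HSC replicate 1, 2 members were called, without WT HSC replicate 2 or WT MPP4 replicate 1 the number was 0, without WT MPP4 replicate 2 it was 3 and without WT MPP4 replicate 3 it was 1. The median without WT HSC replicate 2 was -0.47. With the replicate number as a block, since same-numbered WT libraries of the populations deviated together, 3 members were called (Rpl3l, Rps27l and Rpl10). That block gave same-numbered libraries of both genotypes 1 shared term, although the numbers did not pair between genotypes. With the length and GC trends removed, 3 were called and the median was -0.30. Genes called lower were 5.83% of all under the block and 5.98% with the trends removed, and 2.02% to 4.51% without 1 of these libraries. A block set within each genotype called 8.30% of all genes lower, and its calls among members are not reported here.

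Rps27l, on chromosome 9 (chr9:66946086-66949516, plus strand), is a p53 target and the paralog of Rps27 (chr3:90212522-90213651, minus strand). In the windows above, Rps27 has a tract of 7 bases that begins at the RefSeq start. Rps27l has none at that base, but one begins within 5 bases of it. The Rps27 gene bounds given here are those of GENCODE and begin slightly upstream of the RefSeq start. In HSC, Rps27l was at 73.0, 37.7 and 72.0 CPM in WT, compared with 73.7, 158 and 127 CPM in Mettl3KO (0.97 ± 0.35, edgeR adjusted p = 0.11). The lowest Mettl3KO library lay just above the highest WT library. In MPP2 it was at 112, 102 and 95.4 CPM in WT, compared with 208, 205 and 121 CPM in Mettl3KO (0.79 ± 0.35, edgeR adjusted p = 0.27). In MPP1 (-0.05 ± 0.35, edgeR adjusted p = 0.95) and MPP4 (0.21 ± 0.35, edgeR adjusted p = 0.84) the groups overlapped.

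Since Rps27 shares the common movement of the members, the level of Rps27l was also expressed as a percentage of Rps27 in the same library. In HSC this was 37.1%, 36.3% and 25.7% in WT and 52.6%, 53.6% and 48.1% in Mettl3KO. In MPP1 it was 36.2%, 26.1% and 21.7% in WT and 41.5%, 48.5% and 49.5% in Mettl3KO. In MPP2 it was 57.0%, 42.1% and 48.3% in WT and 63.7%, 72.9% and 58.3% in Mettl3KO. In each of these populations every Mettl3KO library lay above every WT library. In MPP4 it was 57.3%, 48.0% and 40.6% in WT and 69.1%, 78.6% and 72.0% in Mettl3KO, again without overlap. As a part of all member counts, Rps27 itself was lower in Mettl3KO without overlap in MPP1 and MPP4, so the ratio there carries both genes. In MPP1 the part of Rps27l overlapped, at 0.4182%, 0.3091% and 0.2585% in WT and 0.3964%, 0.5386% and 0.4061% in Mettl3KO. In HSC, MPP2 and MPP4 that part was higher in Mettl3KO without overlap. The ratio was chosen after the values of both genes had been seen, so it is given as a description with no test. In WT and in Mettl3KO alike, every MPP2 and MPP4 library lay above every HSC and MPP1 library of that genotype.

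Other p53 targets gave the following values beside it. Cdkn1a, the cell cycle inhibitor, rose in HSC by a log2 fold change of 2.76 ± 0.36 (edgeR adjusted p = 9.2e-05) and Phlda3 by 2.57 (edgeR adjusted p = 9.2e-05), and 3 of 12 listed targets rose there, Bax being the third. In MPP1 and MPP2 2 of 12 rose, Cdkn1a and Phlda3, and in MPP4 0 of 12. The part of p53 in the level of Rps27l was not tested.

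The make-up of the member counts was described by dividing each member by the sum of all members in the library, which removes their common movement. Rpl29 was then higher in Mettl3KO without overlap in all 4 populations. Rpl29, a small basic protein of the large subunit (chr9:106429454-106431568, plus strand), took 0.611%, 0.597% and 0.601% of member counts in WT HSC and 0.777%, 0.788% and 0.790% in Mettl3KO HSC. Over all 12 WT libraries its part was 0.550 to 0.681%, and over the 12 Mettl3KO libraries 0.729 to 0.815%, so that the genotypes were apart across populations too. In CPM, Rpl29 was at 113, 56.1 and 129 in WT HSC and 102, 217 and 193 in Mettl3KO HSC, with overlap.

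Measured in this way 7 further members were higher in 3 of the 4 populations (Rpl12, Rpl13a, Rpl27, Rpl27a, Rps16, Rpl41 and Rps27l) and 5 were lower in 3 (Rpl7, Rpl13, Rpl21, Rpl24 and Rps13). The matching share of all genes for 3 of the 4 populations was not counted. The 7 and 5 members are therefore a description with no background to set them against. Over all genes, divided by the same sum, 0.605% were higher without overlap in all 4 populations, beside 1 of 80 members. In HSC 18 members were higher and 9 lower in this sense, against 3.96% and 10.4% of all genes. In MPP1 6 were higher and 16 lower, against 21.6% and 3.11%. In MPP2 21 were higher and 13 lower, against 4.68% and 19.2%, and in MPP4 13 higher and 11 lower, against 18.6% and 8.63%. These percentages carry the movement of the member sum itself, which all other genes are divided by. No test was made of single parts, and retrocopies of several members, Rpl29 among them, may draw or lend reads.

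**Figure D3:**
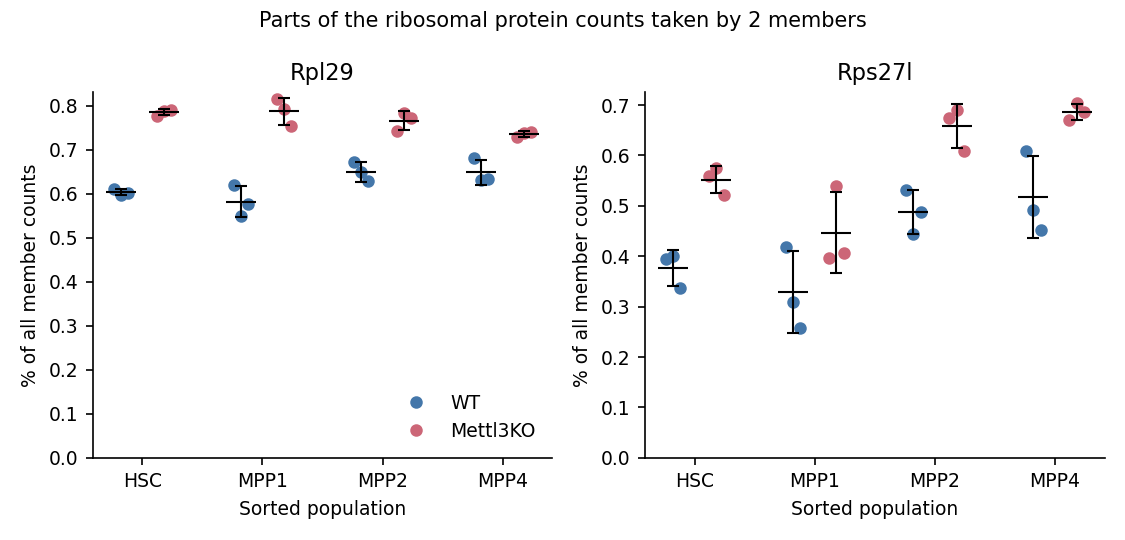
Part of all member counts (y axes, percent) taken by Rpl29 and Rps27l in the 4 populations (x axes). Each point is 1 mouse, bars are the mean and SD of 3 mice. Rpl29 lies at 0.550 to 0.681% in WT and 0.729 to 0.815% in Mettl3KO, and Rps27l is higher in Mettl3KO except for an overlap in MPP1.

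Levels per kilobase of transcript differed widely among members. In bulk, Rpl22 (1419 CPM per kb), Rpl32 (1195) and Rps9 (989) stood highest over the 24 libraries. The value of Rpl22 rests on the transcript chosen, since its longest transcript gives 328 CPM per kb. Among tested members Rpl39l (0.158 CPM per kb), the paralog of Rpl39 known from male germ cells, was lowest, followed by Rpl3l (1.5) and Rps15a (17.5), whose transcript is annotated as unusually long for a member. Rpl10l, the testis paralog of Rpl10, stood lower still (0.0057 CPM per kb), with at most 3 counts in any library, and was not tested. In the droplet libraries, which count 1 end of each molecule, Rpl41, Rps19, Rps29 and Rps28 had the highest levels among members. Across 77 members the bulk level per kb and the UMI level had a Spearman correlation of 0.36, given as a description, since genes are not replicates.

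In the droplet libraries the members took a far larger part of the counts than in bulk. Cells were clustered without the members, and classes were named from listed markers, so they are rebuilt names and not the study's own. Of 24693 cells, 24396 were kept. Doublets were not called, and 303 barcodes occurred in more than 1 library (607 cells). Averaged over the 6 libraries, the share of UMIs was 33.3% ± 2.28 (SD) in HSC/MPP-like cells, 31.1% ± 1.62 in cluster 6, a progenitor cluster led by Cd34, and 30.8% ± 2.79 in megakaryocyte-like cells. It was 30.2% in monocyte progenitor-like and in later erythroid-like cells, 27.7% in granulocyte progenitor-like, 24.2% in B cell-like and 22.9% in dendritic-like cells. Mature neutrophil-like cells stood far lower at 8.39% ± 2.23, and early erythroid-biased-like cells highest at 35.1% ± 1.88, both with fewer than 50 cells in some library. Between neighbours in this order 3 steps had the same sign in 6 of 6 libraries: HSC/MPP-like above cluster 6, later erythroid-like above granulocyte progenitor-like, and that above B cell-like. Each gave p = 0.0312 in an exact paired permutation test, the smallest that 6 libraries allow, and 0.0729 after adjustment over 7 steps. The neighbours were set by sorting these same shares. The step from HSC/MPP-like to cluster 6 pooled genotypes in which the HSC/MPP-like class holds different clusters, as given below. Mean shares of HSC/MPP-like and cluster 6 cells were 34.56% and 30.96% in Mettl3KO, and 32.03% and 31.31% in WT. The depth per cell differed between classes, with a median of 12911 to 21376 UMIs in later erythroid-like cells and 3704 to 5792 in HSC/MPP-like cells, and its part in the order was not tested.

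The third WT library had the lowest share of the WT libraries in most classes. Over all LK cells the share was 30.6%, 31.0% and 24.4% in WT and 29.3%, 27.8% and 31.0% in Mettl3KO, with overlap. That WT library held 1055 mature neutrophil-like cells. Without such cells its share was 28.0%, and the difference of means, Mettl3KO minus WT, went from 0.735 to -0.414 percentage points (exact permutation p = 0.8 and 1). In megakaryocyte-like cells the share was 30.6%, 30.7% and 25.9% in WT and 31.9%, 31.4% and 34.4% in Mettl3KO, without overlap (exact permutation p = 0.1, adjusted 0.8 over 8 classes). In HSC/MPP-like cells it was 33.0%, 33.6% and 29.5% in WT and 34.5%, 32.8% and 36.4% in Mettl3KO (exact permutation p = 0.3).

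**Figure D4:**
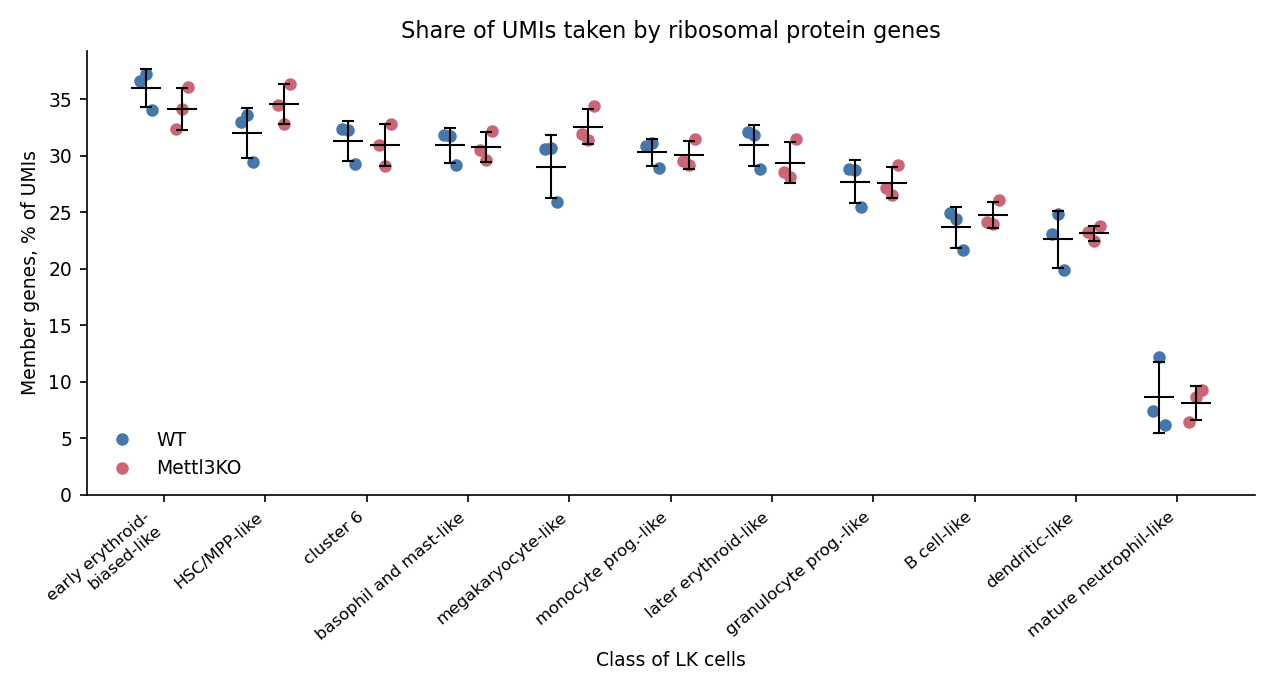
Share of UMIs taken by the ribosomal protein genes (y axis, percent) in classes of LK cells (x axis). Each point is 1 mouse, bars are the mean and SD of 3 mice per genotype. The share falls from 35.1% in early erythroid-biased-like to 22.9% in dendritic-like cells and is 8.39% in mature neutrophil-like cells, and genotypes overlap except in the megakaryocyte-like class.

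Among members, Rps27l varied most between WT classes as a part of member UMIs. It took 0.417% in later erythroid-like cells and 0.197% in early erythroid-biased-like cells, a ratio of 2.12, and stood at 1288 CPM of the raw UMI totals in the former. Rps2 (2.03) and Rpl12 (1.99) followed. For Rps2 the high class was later erythroid-like and the low class mature neutrophil-like cells, and so it was for Rpl12.

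Summed over LK cells, no member differed between genotypes, while 22.4% of all genes did. EdgeR called 0 of 80 members, 4 had an unadjusted p under 0.05 beside 35.8% of all genes, DESeq2 called 1 (Rpl35), and the median log2 fold change was -0.06 with 64 below 0. Rpl35 was lowest, at 1589, 1468 and 1768 CPM in WT, compared with 1311, 1330 and 1346 CPM in Mettl3KO, without overlap (-0.28 ± 0.09, edgeR adjusted p = 0.053). Without mature neutrophil-like cells Rpl35 (-0.31) and Rpl13 (-0.21) were called lower. Leaving out WT replicate 2 or WT replicate 3 gave 1 called member each, Rpl35 and Rpl39l, and without WT replicate 2 the median was 0.01.

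In HSC/MPP-like cells 10 of 78 members rose in Mettl3KO, beside 11.5% of all genes called higher, and no member fell. DESeq2 called 13, beside 7.79% of all genes called higher, and without the low-count filter edgeR called 31, beside 9.17%. The 10 were Rpl29, Rps21, Rpl41, Rplp1, Rplp2, Rps24, Rpl19, Rps15, Rps27l and Rpl27. Rpl29 was at 1637, 1807 and 1307 CPM in WT, compared with 2334, 2159 and 2610 CPM in Mettl3KO (0.58 ± 0.12, edgeR adjusted p = 0.0029). Rpl41, the smallest ribosomal protein, was at 8470, 8173 and 7829 CPM in WT, compared with 11592, 11299 and 12043 CPM in Mettl3KO (0.51 ± 0.11, edgeR adjusted p = 0.004). Rps21 was at 1466, 1581 and 1196 CPM in WT, compared with 2043, 1773 and 2296 CPM in Mettl3KO (0.53, edgeR adjusted p = 0.0054). For all 3 genes the genotypes were apart. Rps27l was at 678, 662 and 641 CPM in WT, compared with 837, 841 and 786 CPM in Mettl3KO (0.31 ± 0.08, edgeR adjusted p = 0.011). Rps27 was at 7193, 7283 and 7051 CPM in WT, compared with 7280, 6665 and 7688 CPM in Mettl3KO, with overlap (0.01 ± 0.11, edgeR adjusted p = 0.97). Of the stalk proteins Rplp1 (0.50, edgeR adjusted p = 0.011) and Rplp2 (0.39, edgeR adjusted p = 0.033) rose, and Rplp0 was at 0.20 (edgeR adjusted p = 0.18). Of the 20 Diamond-Blackfan anaemia genes 2 rose, Rps24 (0.39, edgeR adjusted p = 0.028) and Rpl27 (0.31, edgeR adjusted p = 0.031), and Rps19 was at 0.01 ± 0.11. The genotypes did not overlap for 22 members, all higher in Mettl3KO, against 19.6% of all genes higher without overlap.

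Megakaryocyte-like cells gave 19 of 78 members higher and 0 lower, beside 17.3% of all genes called higher, and DESeq2 called 23, beside 12.4%. Without the low-count filter edgeR called 30, beside 11.6% of all genes called higher. The leading members were again Rps21 (0.72, edgeR adjusted p = 0.0001), Rpl29 (0.69, edgeR adjusted p = 0.00016), Rpl41 (0.62, edgeR adjusted p = 0.0006) and Rplp1 (0.55, edgeR adjusted p = 0.0038). Rps24, Rps23, Rpl19, Rps12, Rplp2, Rps15, Rpl31 and Rps27l followed with log2 fold changes of 0.45 to 0.38. Rpl29 was at 1784, 1820 and 1373 CPM in WT, compared with 2646, 2435 and 2936 CPM in Mettl3KO, and Rps21 at 1392, 1416 and 1012 CPM in WT, compared with 2051, 1939 and 2309 CPM in Mettl3KO, both without overlap. Of the subunits, 13 of 47 large-subunit and 6 of 31 small-subunit members rose. Here 33 members were higher without overlap, against 23.0% of all genes.

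Both classes hold different clusters in the 2 genotypes, and most calls were lost without 1 cluster in each. Cluster 1 held 942, 297 and 748 Mettl3KO cells and 6, 7 and 5 WT cells, and cluster 10 held 463, 191 and 435 Mettl3KO cells and 1, 0 and 0 WT cells. HSC/MPP-like cells of WT were mostly in cluster 4, with 365 of 371, 345 of 352 and 374 of 379 cells. The listed markers on their own name cluster 4 lymphoid-primed-like (Flt3 is among its leading genes, as is the stem cell gene Hlf). The class therefore sets mostly Mettl3KO cells of cluster 1 against WT cells of a lymphoid-primed-like cluster. Without cluster 1, 1 member, Rps27l, was called in HSC/MPP-like cells (0.34, edgeR adjusted p = 0.038), the median of members was 0.05, and Rpl29 stood at 0.18 (edgeR adjusted p = 0.401), Rpl41 at 0.18 and Rps21 at 0.05. Rpl27 was at 0.26 without cluster 1 (edgeR adjusted p = 0.11) beside 0.31 with all cells. Without cluster 10, 0 members were called in megakaryocyte-like cells and the median was 0.06, with 24, 27 and 34 Mettl3KO cells left. Rps27l was at 0.30 there (edgeR unadjusted p = 0.0215, adjusted p = 0.394) beside 0.38 with all cells. Of all genes, 2.13% were called higher without cluster 1 and 0.298% without cluster 10. The values by cluster that follow are CPM of the raw UMI totals, unlike the TMM-scaled class values above. Rpl29 was at 2418, 2441 and 2581 CPM in cluster 1 of the Mettl3KO libraries, at 1759, 1681 and 1911 CPM in their cluster 4, and at 1662, 1797 and 1356 CPM in cluster 4 of WT. Rpl41 was at 11950, 12486 and 11833 CPM, 9039, 9249 and 9170 CPM, and 8608, 8059 and 8143 CPM in the same order. Cluster 1 thus lay above cluster 4 of either genotype for both genes, and for Rpl41 cluster 4 of Mettl3KO also lay above that of WT. The cluster and the genotype cannot be told apart here.

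**Figure D5:**
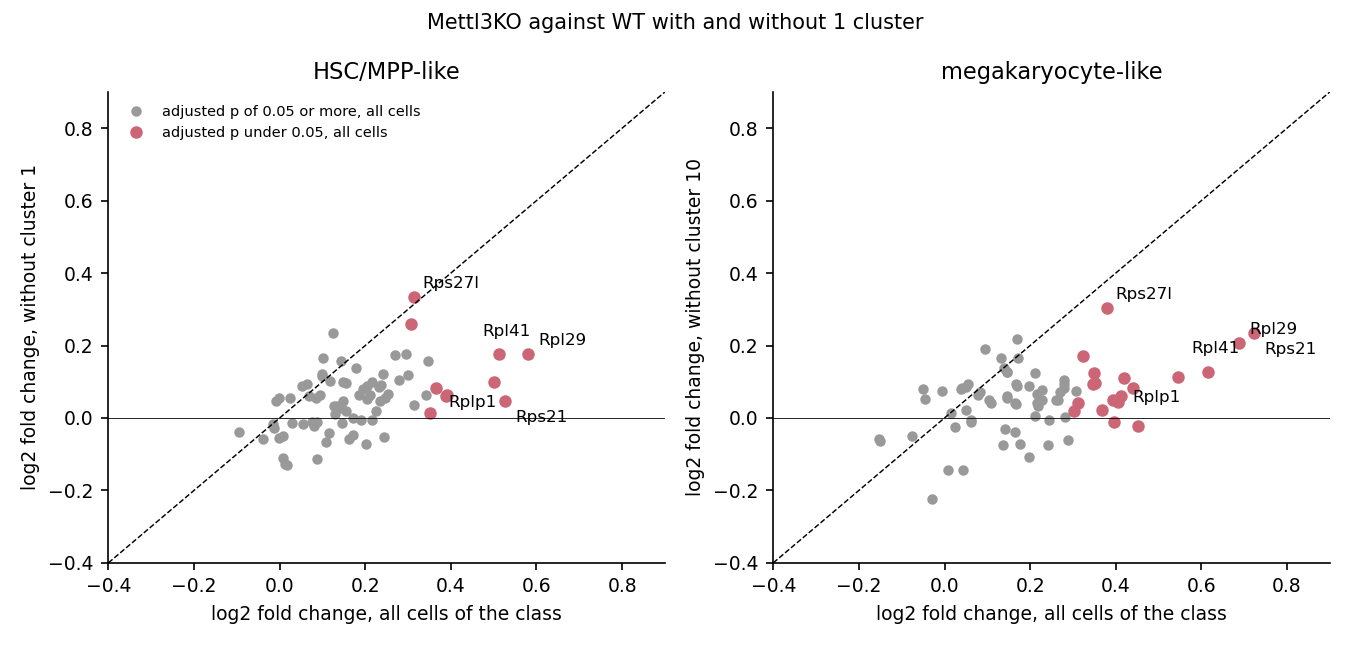
Log2 fold change of each member, Mettl3KO against WT, with all cells of the class (x axis) and without 1 cluster of almost only Mettl3KO cells (y axis), for HSC/MPP-like cells (left) and megakaryocyte-like cells (right). Red points are members with an edgeR adjusted p under 0.05 over all cells, and the dashed line is equality. Most members fall below the line towards 0, while Rps27l stays near it (0.31 and 0.34 in HSC/MPP-like cells).

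Leaving out single libraries gave 4 to 15 called members in HSC/MPP-like cells, with 4 without Mettl3KO replicate 1 and 5 each without Mettl3KO replicate 3, WT replicate 1 or WT replicate 3. Of all genes, 7.85% to 13.8% were called higher in these fits. In megakaryocyte-like cells the range was 8 to 20, with 8 without Mettl3KO replicate 3 and 12 without Mettl3KO replicate 1. There 13.3% to 16.8% of all genes were called higher.

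In cluster 6, Rps27l was the 1 member called (0.31 ± 0.07, edgeR adjusted p = 0.026), against 2.70% of all genes, and the call was lost without Mettl3KO replicate 1, Mettl3KO replicate 2, WT replicate 1 or WT replicate 2. No member was called by edgeR in B cell-like, dendritic-like, granulocyte progenitor-like, later erythroid-like or monocyte progenitor-like cells, against 0.551%, 0.649%, 0.247%, 5.87% and 1.25% of all genes. An unadjusted p under 0.05 was found for 0, 0, 2, 4 and 1 members in that order, beside 8.89%, 8.89%, 13.4%, 21.8% and 14.1% of all genes, and DESeq2 called 1 member, Rpl35 in later erythroid-like cells, where it was lower. There 2 members were called lower without Mettl3KO replicate 3 and 1 (Rpl35) without WT replicate 2. Rps27l was at 0.17 in monocyte progenitor-like (edgeR adjusted p = 0.22), 0.15 in granulocyte progenitor-like (edgeR adjusted p = 0.41) and 0.12 in later erythroid-like cells (edgeR adjusted p = 0.36), each without overlap of the genotypes.

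The ratio of Rps27l to Rps27 was also taken in the droplet libraries. In HSC/MPP-like cells Rps27l was 9.42%, 9.09% and 9.10% of Rps27 in WT and 11.5%, 12.6% and 10.2% in Mettl3KO. In cluster 6 it was 14.8%, 15.3% and 14.9% in WT and 19.95%, 21.5% and 17.6% in Mettl3KO. Both show every Mettl3KO library above every WT library. In later erythroid-like cells it was 25.8%, 25.6% and 24.8% in WT and 32.3%, 30.7% and 27.9% in Mettl3KO. The genotypes were also apart in granulocyte and monocyte progenitor-like cells, and they overlapped in megakaryocyte-like (15.8%, 13.4% and 14.01% against 18.1%, 16.7% and 15.2%), B cell-like and dendritic-like cells. As in bulk this is a description with no test. As a part of all member UMIs, Rps27l was higher in Mettl3KO without overlap only in cluster 6 and later erythroid-like cells, 2 of 8 classes. In HSC/MPP-like cells that part overlapped, at 0.2087%, 0.1945% and 0.2262% in WT and 0.2402%, 0.2546% and 0.2036% in Mettl3KO. The part of Rps27 was lower without overlap in HSC/MPP-like and granulocyte progenitor-like cells, so the ratios there carry both genes. Bulk and droplet ratios differ in level, since full-length reads and 3′ UMIs count the genes differently.

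As parts of all member UMIs, Rpl29 was higher in Mettl3KO without overlap in 5 of 8 classes (HSC/MPP-like, megakaryocyte-like, monocyte progenitor-like, granulocyte progenitor-like and dendritic-like). In HSC/MPP-like cells Rpl29 took 0.504%, 0.531% and 0.461% in WT and 0.670%, 0.653% and 0.676% in Mettl3KO. Rpl23a was lower in 6 of 8 classes. Of all genes divided by the same sum, 10.6% were higher and 24.3% lower without overlap in HSC/MPP-like cells, beside 19 and 16 of 80 members.

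Members that rose were found both with and without the tract at the annotated base. In HSC/MPP-like cells 2 of 13 members with the tract were called, Rps21 and Rplp2, beside 6 of 44 with a window but no such tract, Rpl41 and Rps24 among them, and 2 of 21 without a window. In megakaryocyte-like cells the counts were 2 of 13, 13 of 44 and 4 of 21. In these fits 11.5% and 17.3% of all genes were called higher. Most of these member calls were lost without cluster 1 or cluster 10, as given above. Other translation genes gave 2 of 19 higher (Eef2, the elongation factor, among them) and 1 lower (Eif3e) in HSC/MPP-like cells. In megakaryocyte-like cells 3 were higher (Eef2 and Eef1a1 among them) and 2 lower (Npm1 and Eif3e). Of listed p53 targets 5 of 10 rose in HSC/MPP-like and 6 of 7 in megakaryocyte-like cells, where Cdkn1a rose by 2.80 and Phlda3 by 3.17 on the log2 scale.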

How the data were processed

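Bulk RNA from sorted cells was amplified with SMARTer chemistry and sequenced as paired reads on HiSeq, per the labels' protocols. The LK cells were run on the 10x Chromium system. The bulk table deposited by the authors is named for FPKM, but its values are whole-number counts with different totals per library and were used as counts. The deposited 10x matrices hold UMI counts per cell. The submitters' processing notes name Cell Ranger 2.2, TopHat and Bowtie, and as builds both GRCh37 and mm10, with no role for any of them. How reads that match several places were counted is not given in the sources used here, and most members have retrocopies, so member counts are uncertain to that extent.

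The members and all gene lists were chosen with earlier results of these data known. Bulk counts were tested with edgeR 4.0.16 in 1 quasi-likelihood fit over 24 libraries (filterByExpr, TMM scaling, 15545 genes kept, Benjamini-Hochberg adjustment over all of them). Cells with more than 10% mitochondrial UMIs were removed. The others were clustered with scanpy 1.11.5 (2000 variable genes, 30 principal components, Leiden resolution 1) without members, mitochondrial genes, Xist, Tsix or Mettl3. Counts were summed per mouse and class, and classes with 50 cells in each library were tested with edgeR. HSC/MPP-like joins cluster 1 with cluster 4, which its own markers name lymphoid-primed-like, pooled after the data were seen, and megakaryocyte-like joins clusters 10 and 13. Shares were compared with exact permutation tests over mice. Scripts were tested on simulated counts. The annotation was GENCODE on GRCm38.

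Named members were those called (the 12 of largest change where more than 12 were) with Rps27l, Rps27, Rpl5, Rpl11, the stalk, Rps14, Rps19, Rpsa, Rpl22, the tissue-limited paralogs, and the 3 highest and lowest per length; Rpl29 and other members named for ratios, parts of counts or overlap were picked after their values were seen. Some genes of these lists are not reported here. Alternatives were DESeq2 1.42.0, RLE scaling, no low-count filter, a fit of only the libraries compared, and length and GC trends removed. Others were a replicate block, shared by the genotypes or set within each, and leaving out libraries, cells or clusters. Replicate numbers pair the WT libraries of HSC with those of the MPP populations, from the data: in all 9 same-numbered pairs the deviations from the group means correlated above 0.1 (0.123 to 0.510). Between genotypes they did not.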

Additional observations from a re-analysis of the deposited data

How the results depend on the processing

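The sign of the members' median held under every alternative tried for HSC (0.14 to 0.69), MPP1 (-0.99 to -0.29), MPP2 (0.27 to 0.58), each WT comparison of HSC with a progenitor, HSC/MPP-like and megakaryocyte-like cells. It changed for MPP4 with length and GC trends removed (0.06), for LK, cluster 6, dendritic-like, granulocyte progenitor-like and monocyte progenitor-like cells with single libraries left out, and for the genotype effect in HSC against MPP2. Members called with length and GC trends removed numbered 6 in HSC, 20 in MPP1, 2 in MPP2 and 3 in WT HSC against MPP4. Of all genes, 9.07%, 9.42%, 4.52% and 10.6% were called there in either direction. DESeq2 called 5 members in MPP1, 18 in WT HSC against MPP4, 1 in LK and 1 in later erythroid-like cells. It called 15% of all genes in MPP1 and 18.9% in WT HSC against MPP4. Without a low-count filter 3 members were called in WT HSC against MPP4, beside 8.17% of all genes. That setting gave 31 members in HSC/MPP-like, 30 in megakaryocyte-like and 1 in later erythroid-like cells. RLE scaling gave 1 in LK. A fit of only the libraries compared gave 9 members in WT HSC against MPP4, beside 18.6% of all genes. Without the 3 libraries of highest Rn45s share, chosen after the data were seen, 18 members were called in MPP1 and 16 in WT HSC against MPP4. Of all genes, 11.9% and 17.3% were called there. Leaving out 1 library called 2.83% to 7.95% of all genes in HSC, 4.25% to 11% in MPP1 and 4.25% to 8.43% in WT HSC against MPP4. Shares of all genes in the droplet settings are not all reported here. Members called without 1 library were 0 to 1 in HSC, 0 to 16 in MPP1 and 0 to 6 in WT HSC against MPP4. In droplet cells they were 0 to 1 in LK, 4 to 15 in HSC/MPP-like and 8 to 20 in megakaryocyte-like cells. Shares of all genes called higher in the fits of these last classes are given above. Cluster 6 gave 0 to 1 members and later erythroid-like cells 0 to 2. Also chosen after the data were seen, leaving out mature neutrophil-like cells gave 2 in LK, leaving out cluster 1 gave 1 in HSC/MPP-like cells, and leaving out cluster 10 gave 0 in megakaryocyte-like cells, where Rps24 (-0.0209, edgeR adjusted p = 0.98) and Rps15 (-0.0109, edgeR adjusted p = 0.991) changed sign. The cause of these changes was not tested.

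With the replicate number as a block, 3 members were called in WT HSC against MPP4, 5 in HSC/MPP-like, 7 in megakaryocyte-like cells and 0 in cluster 6, and the block moved no other count of called members. Of all genes, the block called 10.8% in WT HSC against MPP4. Between genotypes and in the 10x libraries the samples share only a number: same-numbered 10x libraries of the genotypes correlated at -0.12, -0.21 and -0.60, and those of WT and Mettl3KO HSC at -0.54 to 0.26. The setting that keeps all deposited cells was run for LK only, since the 297 removed cells were not clustered. Rpl10l, with at most 3 counts in a library, and Rpl39l are beyond what this depth can compare.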
